A study of Mus musculus with 6 samples.

Results

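Brown adipose tissue (BAT) burns fuel to make heat, and it also releases proteins that act on the tissue itself and on other organs. Transcripts of 10 such proteins were followed in BAT of wild-type and Letmd1 knockout (Letmd1 KO) mice. They are Adipoq (adiponectin), Lep (leptin), Retn (resistin), Rbp4 (retinol-binding protein 4), Nrg4 (neuregulin 4), Angptl4 (angiopoietin-like 4), Il6 (interleukin 6), Rarres2 (chemerin), Metrnl (meteorin-like) and Slit2. The 10 genes were chosen by symbol among the 23282 rows of the deposited counts, each with 1 row, and 9 of them passed the filter on low counts. Il6 did not.

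The mice were C57BL/6N males of 5 weeks, 3 wild-type and 3 Letmd1 KO, and RNA came from BAT. The Letmd1 KO mice were homozygous for a knockout-first allele, in which a cassette with lacZ and a neomycin resistance gene sits in an intron of Letmd1 in every cell of the body, and the line goes back to 1 embryonic stem cell clone. QuantSeq libraries cover only the 3′ ends of mRNAs, and counts therefore do not grow with gene length. Each mouse gave between 6669577 and 14574273 counts, and a count of 0 allows up to 3, which is 0.176 to 0.397 CPM depending on the library. CPM are counts scaled to a common library size, here after edgeR's TMM method. This limit covers counting error only.

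Adiponectin, leptin and resistin are the classical adipokines, hormones made mainly by fat cells. Adiponectin raises insulin sensitivity, leptin reports fat stores to the brain, and resistin, which in mice comes from fat cells, opposes insulin. White fat makes far more leptin than brown fat. Neuregulin 4 is the secreted factor most closely tied to brown fat and acts on the liver through ErbB receptors, while angiopoietin-like 4 blocks lipoprotein lipase and so limits the uptake of circulating fat.

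Letmd1 itself matched the genotype labels, with 5266 to 6490 counts per wild-type mouse and a total of no more than 1 in any Letmd1 KO mouse. All 9 brown adipocyte markers were detected in every mouse. In the test given below, 6 of the 9 were lower in Letmd1 KO BAT and 3 did not pass. Ucp1, the uncoupling protein of brown fat, had 5841 to 6874 CPM in wild-type BAT and 255 to 476 CPM in Letmd1 KO BAT. A pair of mice stood apart from others of their genotype. On the second principal component of log2 CPM, which held 8.40% of the variance, wild-type replicate 3 lay at -40.2 and the other 5 mice between -13.3 and 22.8. Letmd1 KO replicate 2 had a summed level of 12 macrophage markers of 3637 CPM, against 1755 and 1516 CPM in the other Letmd1 KO mice. Where leaving out either mouse changed a call or a direction of a gene named here, the value without it is given.

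Promoter sequence is shown for 4 members that fat cells are known to make, of which 2 were lower, 1 was higher and 1 did not pass the test. The RefSeq table for GRCm38.p6 held windows for 8 of the 10 members, with 9 windows in all, and the 150 bases before the start of transcription are printed 5′ to 3′ on the strand of the gene. Capitals mark matches on either strand to the motifs searched. Adipoq is at chr16:23146386-23146535 (plus strand), Lep at chr6:29060071-29060220 (plus strand), Retn at chr8:3655620-3655769 (plus strand) and Nrg4 at chr9:55283626-55283775 (minus strand). The Nrg4 window precedes the start that RefSeq gives, which lies inside the longer GENCODE span of the gene.
Adipoq: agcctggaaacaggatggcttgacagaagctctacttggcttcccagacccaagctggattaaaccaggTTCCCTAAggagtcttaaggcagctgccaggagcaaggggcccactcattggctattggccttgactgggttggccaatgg
Lep: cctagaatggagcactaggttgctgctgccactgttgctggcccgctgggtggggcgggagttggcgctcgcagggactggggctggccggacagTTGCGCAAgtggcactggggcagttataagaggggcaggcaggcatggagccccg
Retn: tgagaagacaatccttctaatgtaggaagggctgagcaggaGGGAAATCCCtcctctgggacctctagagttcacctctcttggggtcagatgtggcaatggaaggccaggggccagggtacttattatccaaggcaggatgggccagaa
Nrg4: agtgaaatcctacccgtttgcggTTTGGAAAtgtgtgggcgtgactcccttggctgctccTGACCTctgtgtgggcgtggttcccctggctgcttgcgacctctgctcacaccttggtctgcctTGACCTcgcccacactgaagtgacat

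The 11 motifs were searched on both strands of the 250 bases before the start. The palindrome TTGCGCAA, bound by C/EBP factors, was in the Lep window, 55 bases before the start, and in 0.164% of the 32851 promoter windows of the table. The looser C/EBP form TTNNGNAA, which includes the palindrome, was in the windows of Adipoq, Il6, Lep, Nrg4 and Rbp4 and in 36.8% of all windows. AGGTCA, the core of sites for nuclear receptors such as PPARγ, matched in the Nrg4 window at 2 places and in 14.0% of all windows. An NF-kB motif (GGG, any 2 bases, TT, any base, CC) was in the windows of Il6 and Retn and in 4.11% of all windows. TATAAA (12.4% of all windows) was in those of Rbp4 and Slit2, TGANTCA (6.75%) in those of Il6 and Rbp4, and TGACG (17.8%) likewise in those of Il6 and Rbp4. The direct repeat of AGGTCA with 1 base between, and TTGCATCA, TGACGTCA and CACGTG, present in 0.0335%, 0.791%, 1.55% and 6.02% of all windows, had no match in a window of the members. A match describes letters and does not show binding.

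Of the 9 members tested, 4 were higher in Letmd1 KO BAT and 2 were lower. The threshold was 0.05 for a p adjusted by Benjamini and Hochberg over all genes, from the quasi-likelihood test of edgeR. Among all 12995 genes tested, 23.7% were higher and 22.3% lower, 46.0% in either direction. The values of the genotypes did not overlap for 6 of the 9 members, against 57.3% of all genes, so calls were common in the whole transcriptome. Adipoq and Nrg4 fell, Retn, Angptl4, Rarres2 and Metrnl rose, and Lep, Rbp4 and Slit2 did not pass the test.

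**Figure D1:**
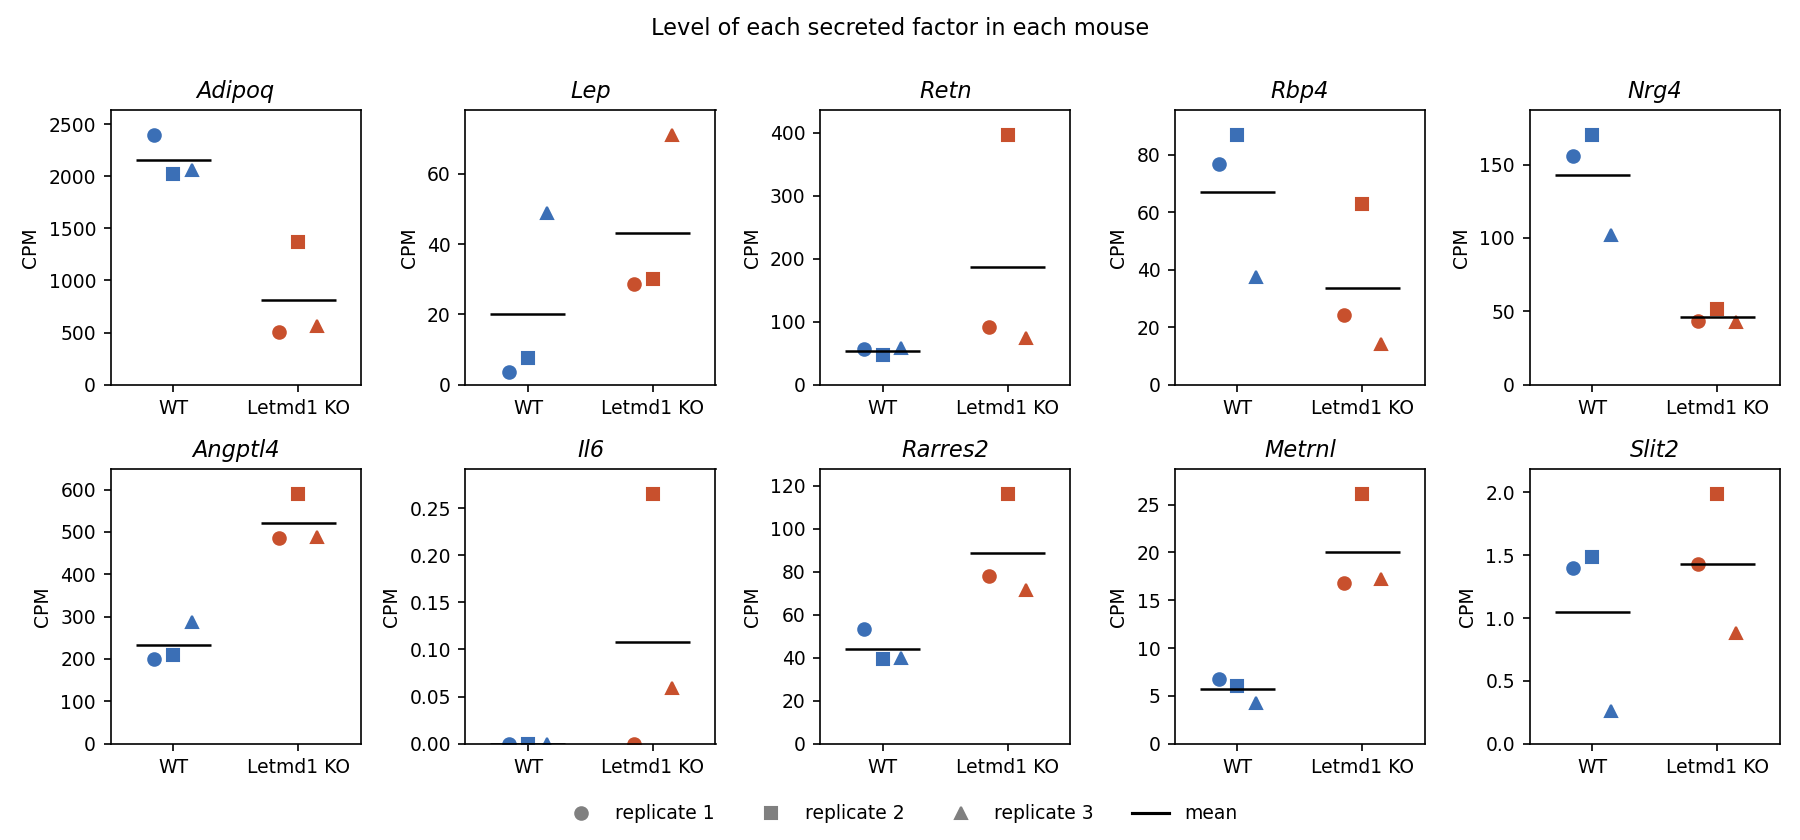
Level of each of the 10 secreted factors in CPM (y axis, linear, from 0) in the 3 wild-type (WT, blue) and 3 Letmd1 KO (orange) mice, with replicates as marker shapes and black lines for group means. Adipoq and Nrg4 lie lower and Retn, Angptl4, Rarres2 and Metrnl higher in every Letmd1 KO mouse, and Letmd1 KO replicate 2 (orange square) is the highest Letmd1 KO mouse in 8 of the 9 panels of tested genes.

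Adipoq was the most counted member. It lies on chromosome 16 from 23146536 to 23158028 on the plus strand in the GENCODE annotation of GRCm38. Its level was 2395, 2020 and 2060.5 CPM in wild-type BAT and 502, 1368 and 563 CPM in Letmd1 KO BAT. No Letmd1 KO mouse reached the wild-type range, and replicate 2 lay far above the other Letmd1 KO mice. The change was 2.66-fold, a log2 fold change of -1.41 (standard error 0.34, edgeR adjusted p = 0.00801). It was -2.02 without Letmd1 KO replicate 2, and the call was lost under quantile normalization with limma (log2 fold change -0.82, adjusted p = 0.0819).

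Most markers that fat cells share were lower as well. Of 8 pan-adipocyte markers, among them Fabp4 and Plin1, 6 were lower and 2 did not pass the test. The 8 markers summed to between 36314 and 41087 CPM in wild-type BAT and to between 12642 and 17668 CPM in Letmd1 KO BAT. Relative to their summed counts in the same mouse, the log2 difference of Adipoq was -0.16 and that of Nrg4 was -0.21. Whether these differences come from fewer fat cells or from less RNA of the genes per cell cannot be told apart in bulk tissue.

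Nrg4 is on chromosome 9 from 55220222 to 55326844 on the minus strand. It had 156, 170 and 102 CPM in wild-type BAT and 43.1, 51.7 and 42.6 CPM in Letmd1 KO BAT. The Letmd1 KO mice were close to each other, with a coefficient of variation of 11.3%, and all lay below the lowest wild-type mouse. With a 3.12-fold fall (log2 fold change -1.64, standard error 0.19, edgeR adjusted p = 0.000136), Nrg4 had the most negative fold change of the members. When single mice were left out, the log2 value stayed between -1.85 and -1.52.

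Lep was expressed at a low level and varied widely. The gene lies on chromosome 6 from 29060220 to 29073877, plus strand. Wild-type replicates 1 and 2 had 34 and 71 counts (3.67 and 7.53 CPM) and wild-type replicate 3 had 375 counts (48.9 CPM), while the Letmd1 KO mice had 28.7, 30.0 and 71.0 CPM. Thus replicate 3 of the wild type lay within the Letmd1 KO range and the genotypes overlapped. With all mice the log2 fold change was 1.15, with a 95% interval from -0.58 to 2.87 (edgeR adjusted p = 0.25). Without wild-type replicate 3 it was 2.95 (edgeR adjusted p = 0.00127), so a single mouse decides whether leptin passed the test.

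Retn (chromosome 8 from 3655770 to 3660110, plus strand) had 56.1, 46.9 and 58.7 CPM in wild-type BAT and 90.9, 396 and 74.6 CPM in Letmd1 KO BAT. Every Letmd1 KO mouse was above every wild-type mouse, and replicate 2 was over 4 times as high as the next Letmd1 KO mouse. The log2 fold change was 1.79 (standard error 0.55, edgeR adjusted p = 0.0249). It fell to 0.62 without Letmd1 KO replicate 2, where it still passed (edgeR adjusted p = 0.00957). Retn did not pass with wild-type replicate 1 left out (adjusted p = 0.0664 from edgeR) or with replicate 2 left out (adjusted p = 0.0749 from edgeR).

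Rbp4, the plasma carrier of vitamin A, lies on chromosome 19 from 38116629 to 38125281 on the minus strand. It had 77.0, 86.8 and 37.6 CPM in wild-type BAT and 24.4, 62.7 and 14.1 CPM in Letmd1 KO BAT. Here the genotypes overlapped, as wild-type replicate 3 was below Letmd1 KO replicate 2. The log2 fold change was -1.02, with a 95% interval from -2.12 to 0.09 (edgeR adjusted p = 0.119). Leaving out either mouse gave a call, with -1.32 without wild-type replicate 3 (edgeR adjusted p = 0.0484) and -1.82 without Letmd1 KO replicate 2 (edgeR adjusted p = 0.00433).

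Letmd1 KO replicate 2 was the highest Letmd1 KO mouse for 8 of the 9 members tested, and for none of the 9 the lowest. Lep, highest in replicate 3, was the exception. The adipokine Cfd (adipsin), named here after its values were seen, had the same order, with 951, 4882 and 732 CPM in Letmd1 KO replicates 1, 2 and 3 and between 2296 and 3561 CPM in wild-type BAT. Its log2 fold change was -0.50 with all mice (edgeR adjusted p = 0.535) and -1.88 without Letmd1 KO replicate 2 (edgeR adjusted p = 0.000212). In the same mouse the pan-adipocyte markers (17668 CPM) and the fibroblast and progenitor markers (3504 CPM, against 2286 and 2060) were the highest of the Letmd1 KO mice too, and the brown adipocyte markers (1998 CPM, against 2836 and 3400) the lowest. Their part in the members' values was not tested. How often Letmd1 KO replicate 2 was the highest was not counted over all genes. For Slit2 its place rested on 15 counts, against 13 and 15 in Letmd1 KO replicates 1 and 3.

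Angptl4 is on chromosome 17 from 33773750 to 33781830, minus strand. Its level was 201, 210 and 286 CPM in wild-type BAT and 486, 589 and 487 CPM in Letmd1 KO BAT. All 3 Letmd1 KO mice were well above the wild-type range. The rise was 2.24-fold (log2 fold change 1.17, standard error 0.16, edgeR adjusted p = 0.000352), and it ranged from 1.06 to 1.33 on the log2 scale when single mice were left out.

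Rarres2 encodes chemerin, an adipokine that also draws immune cells which carry its receptor Cmklr1. It had 53.5, 39.5 and 39.6 CPM in wild-type BAT and 78.1, 116 and 71.5 CPM in Letmd1 KO BAT, without overlap. The rise was 1.99-fold (log2 fold change 0.996, standard error 0.20, edgeR adjusted p = 0.00323). On chromosome 6 from 48569696 to 48572789 (minus strand), the last 500 bases of Rarres2 overlap Lrrc61, which is read from the other strand. Whether the counting was strand-specific is not given in the sources used here. Lrrc61 had 68.2, 59.5 and 64.1 CPM in wild-type BAT and 95.8, 130 and 89.0 CPM in Letmd1 KO BAT, so reads of these genes cannot be told apart.

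Metrnl, a hormone released by muscle, fat and macrophages and linked to browning of fat, lies on chromosome 11 from 121701544 to 121716306 on the plus strand. Its level rose from 6.79, 6.04 and 4.30 CPM in the wild-type mice to 16.8, 26.1 and 17.2 CPM in Letmd1 KO BAT. Each Letmd1 KO mouse was more than 2 times as high as the highest wild-type mouse, and the log2 fold change was 1.79 (standard error 0.25, edgeR adjusted p = 0.00043).

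Markers of muscle and of other cells were measured in the same libraries. The summed level of 13 skeletal muscle markers was 10.8, 397 and 8.74 CPM in wild-type BAT and 419, 304 and 1217 CPM in Letmd1 KO BAT, with 2 of 13 higher in the test and overlap of the genotypes. Wild-type replicate 2, with 397 CPM of muscle markers, had 6.04 CPM of Metrnl, between the other wild-type mice. Macrophage markers were higher for 12 of 12 genes and summed to between 183 and 256 CPM in wild-type BAT and to between 1516 and 3637 CPM in Letmd1 KO BAT, with none at 0 in any mouse. The fibroblast and progenitor markers were higher for 8 of 8 genes (866 to 1150 CPM against 2060 to 3504 CPM) and the Schwann cell markers for 5 of 5 tested. Endothelial sums were 419 to 552 CPM against 308 to 374 CPM, with 3 of 7 genes lower, 1 higher and 3 not past the threshold. The mural and erythroid sums overlapped. Lymphocyte markers summed to no more than 7.54 CPM in any mouse. Of 6 white adipose markers, Hoxc10, Wt1 and Tcf21 were at 0 in every mouse, and the sum went from between 32.6 and 53.2 CPM to between 117 and 211 CPM, nearly all of it Hoxc8 and Nnat. The part of these other cells in the rise of Retn, Angptl4, Rarres2 and Metrnl was not tested.

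Il6 and Slit2 were close to the limit of detection. Il6, a cytokine that brown fat releases under stress and adrenergic drive, had 0 counts in all wild-type mice and 0, 2 and 1 in Letmd1 KO BAT, at or under the limit of 3 counts in each, so no fold is given. Slit2, whose cleaved fragment acts on fat cells, had 13, 14 and 2 counts in wild-type BAT and 13, 15 and 15 in Letmd1 KO BAT. Its log2 fold change was 0.36, with a 95% interval from -1.01 to 1.73 (edgeR adjusted p = 0.661), and the sign turned under quantile normalization with limma and without wild-type replicate 3. A difference of Slit2 was not detectable at this depth.

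TMM factors ranged from 0.852 to 0.886 in wild-type and from 1.13 to 1.17 in Letmd1 KO libraries, and other scalings moved the members by different amounts. With library size alone the median of all genes moved from 0.033 to 0.45 on the log2 scale and the calls over all genes from 2896 lower and 3082 higher to 1368 lower and 5899 higher, and the 6 calls of members stood. Relative to Rpl32, a ribosomal gene that itself rose (log2 fold change 0.75), the log2 values were 1.05 for Metrnl, 0.63 for Retn, 0.44 for Angptl4 and 0.24 for Rarres2, and -2.30 for Adipoq and -2.35 for Nrg4. Relative to the pan-adipocyte markers, the rises were between 2.38 for Rarres2 and 3.19 for Metrnl, while Rbp4 was at 0.22.

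**Figure D2:**
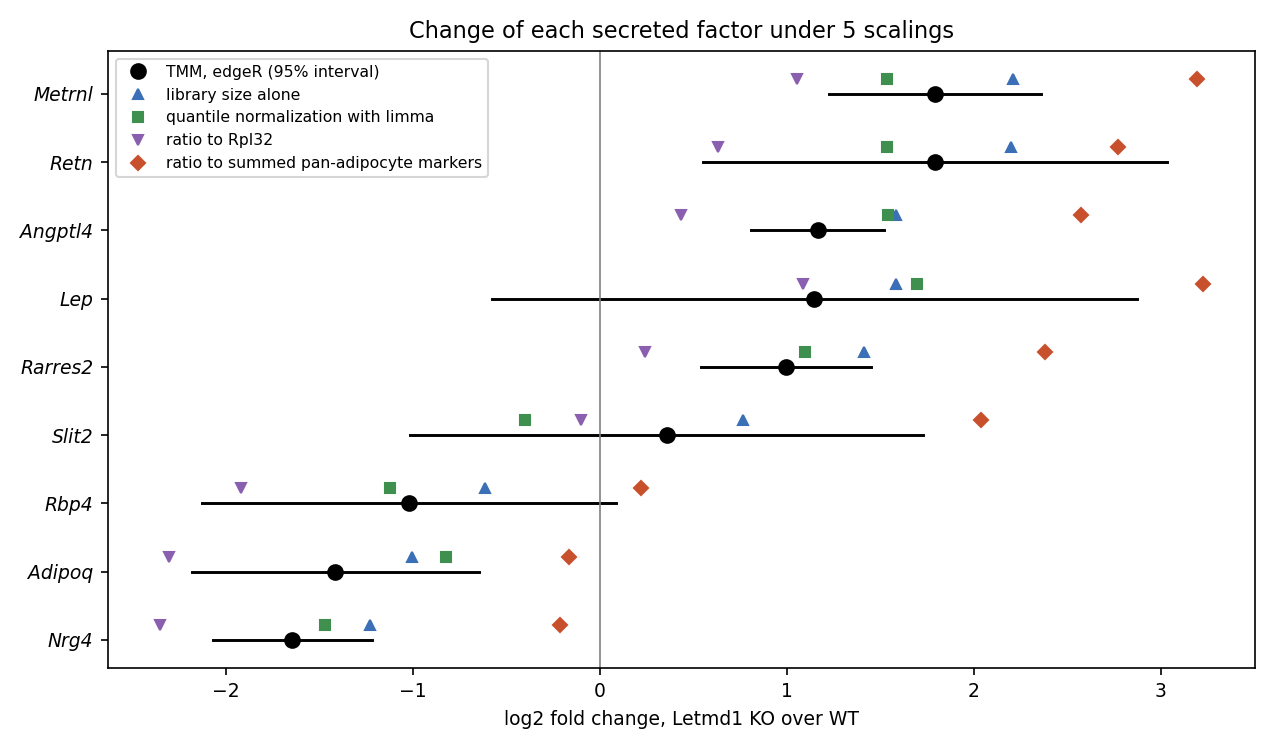
Log2 fold change of the 9 tested members, Letmd1 KO over WT (x axis), with black points and 95% intervals for TMM scaling in edgeR and coloured markers for 4 other scalings. Metrnl, Retn, Angptl4 and Rarres2 stay above 0 and Adipoq and Nrg4 below 0 under every scaling shown, with Adipoq (-0.16) and Nrg4 (-0.21) nearest to 0 relative to pan-adipocyte markers.

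Ratios of counts within a mouse do not depend on the scaling. Adipoq took between 78.1% and 81.2% of the counts of the 10 members in wild-type BAT and between 39.5% and 51.8% in Letmd1 KO BAT, while the share of Angptl4 went from between 6.80% and 10.9% to between 22.3% and 38.2%. For every 100 counts of Adipoq there were 2.34, 2.32 and 2.85 counts of Retn in wild-type BAT and 18.1, 28.9 and 13.3 in Letmd1 KO BAT. The wild-type ratios were tight and the Letmd1 KO ratios were 8.03 times as high on average. With Letmd1 KO replicate 2, the highest mouse, left out, the log2 ratio of the means changed from 3.01 to 2.65.

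Chemerin rose against adiponectin as well, but here Letmd1 KO replicate 2 had the lowest ratio of the Letmd1 KO mice. As given above, reads of Rarres2 cannot be told apart from those of Lrrc61. There were 2.23, 1.96 and 1.92 counts of Rarres2 per 100 of Adipoq in wild-type BAT and 15.6, 8.48 and 12.7 in Letmd1 KO BAT. Leptin per 100 counts of adiponectin was 0.153, 0.373 and 2.37 in wild-type BAT and 5.71, 2.20 and 12.6 in Letmd1 KO BAT, with wild-type replicate 3 above Letmd1 KO replicate 2. The log2 ratio of the means was 2.82 with all mice and 4.70 without wild-type replicate 3. The Rbp4 ratio overlapped between the genotypes, at 3.11 ± 1.24 in wild-type and 3.98 ± 1.29 in Letmd1 KO BAT (SD, n = 3 each).

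**Figure D3:**
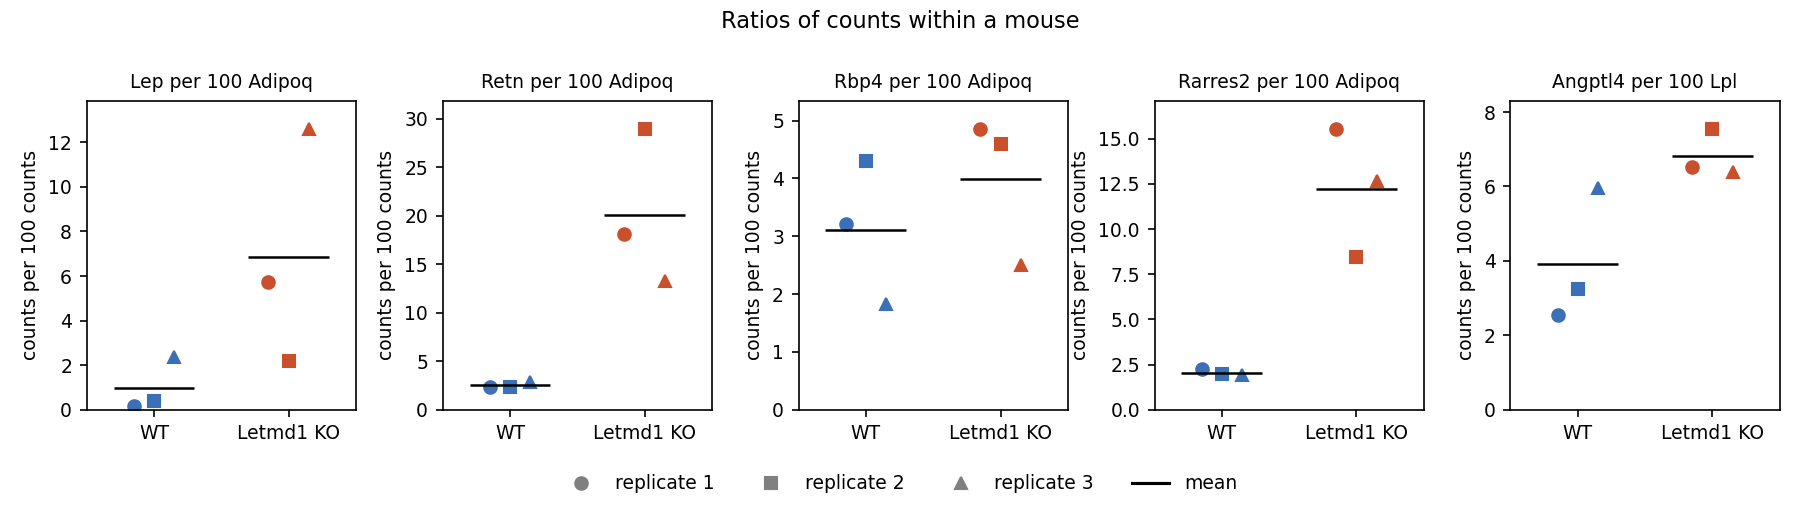
Counts of a secreted factor per 100 counts of Adipoq (4 panels) or Lpl (right panel) in each mouse, WT in blue and Letmd1 KO in orange, with black lines for group means and linear y axes from 0. Resistin and chemerin per adiponectin are higher in all Letmd1 KO mice, and the ranges of Lep and Rbp4 per Adipoq overlap.

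Of 24 genes for receptors and binding partners of the members, 14 passed the filter, with 3 higher and 3 lower. These shares were close to those over all genes, 23.7% higher and 22.3% lower. The median log2 fold change was -0.05, against 0.033 over all genes. The adiponectin receptor Adipor2, which signals through fatty acid oxidation, fell from 823, 861 and 831 CPM to 438, 444 and 379 CPM, a 1.99-fold fall with little spread (edgeR adjusted p = 0.00013). Cdh13 (T-cadherin), which holds adiponectin at the surface of vessels and muscle, fell from 28.4 ± 4.51 to 15.7 ± 3.22 CPM (SD, n = 3 each). The other receptor, Adipor1, had a log2 fold change of -0.16 with a 95% interval from -0.41 to 0.09. Transcripts of adiponectin, 1 of its receptors and its binding protein were therefore all lower in the same mice.

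Receptors of the factors that rose were higher or did not pass. Cmklr1, the chemerin receptor, rose from 8.30, 7.95 and 5.87 CPM to 22.6, 31.4 and 25.2 CPM (log2 fold change 1.83, edgeR adjusted p = 0.0001). Tlr4 and Cap1, both proposed to bind resistin, had log2 fold changes of 2.22 and 0.74, and the last 500 bases of Cap1 overlap Ppt1, read from the other strand. Tlr4 and Cmklr1 are known in macrophages, whose markers rose as given above. The part of macrophages in the rise of these 2 receptors was not tested. Ccrl2, which binds chemerin without signalling, was at 1.21 with an interval from -0.43 to 2.86, and at 0.083 without Letmd1 KO replicate 2. Gpr1, the second chemerin receptor, had 5, 5 and 2 counts in wild-type BAT and 6, 3 and 1 in Letmd1 KO BAT and was not tested. Kit, a reported Metrnl receptor, was at -1.53 with an interval from -3.14 to 0.07, where wild-type replicate 3 had 38.1 CPM and the Letmd1 KO mice between 4.82 and 6.88 CPM. The value for Kit was 0.024 without wild-type replicate 3 (edgeR adjusted p = 0.961) and -2.02 without wild-type replicate 1 (edgeR adjusted p = 0.0264).

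For leptin, neuregulin 4 and Slit2, receptor transcripts were scarce. Lepr had 5, 1 and 3 counts in wild-type and 5, 5 and 3 in Letmd1 KO BAT. Erbb3 had 0 counts in 5 mice and 3 in Letmd1 KO replicate 3, and Erbb4 had no more than 5 in any mouse. Robo1 had 2, 0 and 2 counts in wild-type BAT and 14, 7 and 7 in Letmd1 KO BAT. It was under the filter, and without a filter its log2 fold change of 2.50 did not pass (standard error 1.03, edgeR adjusted p = 0.0745). Letmd1 KO replicate 3, at 0.412 CPM, was close to the limit of 0.391 CPM in wild-type replicate 3. Robo2 and Robo3 did not exceed 5 counts, while Robo4 of endothelial cells had a log2 fold change of -0.15 (interval -0.67 to 0.38). Of the Il6 receptor, Il6ra was at 0.05 (interval -0.33 to 0.42). The value for Il6ra was -0.029 without wild-type replicate 3 and -0.023 without Letmd1 KO replicate 2. Il6st was at 0.35 (edgeR adjusted p = 0.0514), or 0.40 without wild-type replicate 3 (edgeR adjusted p = 0.0379). The retinol transporters Stra6 and Stra6l and the Rbp4 partner Ttr did not pass the filter. Stra6l had 0 counts in wild-type BAT and 8, 58 and 3 in Letmd1 KO BAT, most of them again in replicate 2.

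Around lipoprotein lipase, inhibitors and helpers moved in different directions. Lpl itself, the enzyme that frees fatty acids from circulating triglyceride, had 7894, 6442 and 4792 CPM in wild-type BAT and 7453, 7797 and 7612 CPM in Letmd1 KO BAT, a log2 fold change of 0.26 with an interval from -0.19 to 0.70. Angptl4 per 100 counts of Lpl was 2.54, 3.25 and 5.97 in the wild-type and 6.52, 7.55 and 6.40 in Letmd1 KO BAT, higher in each of the latter although wild-type replicate 3 came close. Lmf1, needed for folding of the lipase, fell from 57.5 ± 5.61 to 30.5 ± 2.31 CPM (SD, n = 3 each). Gpihbp1, which carries the lipase across the capillary wall, was at -0.31 (interval -0.64 to 0.02), and at -0.44 without wild-type replicate 3 (edgeR adjusted p = 0.0296).

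Relatives of Angptl4 moved in both directions. Angptl8 (listed as Gm6484), which acts on the lipase and is raised by feeding and insulin, fell from 26.2, 31.9 and 31.4 CPM to 1.54, 5.82 and 1.76 CPM, a 10.5-fold fall (edgeR adjusted p = 0.000183). Angptl6 rose from 6.90, 5.51 and 5.48 CPM to 34.8, 33.3 and 39.0 CPM (log2 fold change 2.58, edgeR adjusted p = 7.71e-06). Its last 500 bases overlap A230050P20Rik, which is read from the other strand, which had 7.71 ± 0.931 and 37.4 ± 2.80 CPM (SD, n = 3 each), so the source of these reads cannot be told apart either.

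Of all 34 relatives of the members, 23 passed the filter, with 12 higher, 5 lower and a median log2 fold change of 0.91. Over all genes tested, 23.7% were higher and 22.3% lower, with a median of 0.033, so the share of lower relatives was close to that of all genes. In the Slit family it was Slit1, known from axon guidance in the brain, that changed most. Slit1 (chromosome 19 from 41600257 to 41743665, minus strand) had 0, 0 and 3 counts in wild-type BAT and 351, 292 and 908 in Letmd1 KO BAT, that is 38.6, 38.6 and 53.4 CPM. With all wild-type mice at or under the limit of 3 counts per library, it was at least 126-fold higher in Letmd1 KO BAT (edgeR adjusted p = 4.51e-06). Slit3, named here after its values were seen, rose from 2.45 ± 0.31 to 7.29 ± 2.40 CPM (SD, n = 3 each).

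C1q/TNF proteins share the globular domain of adiponectin, and they split. C1qtnf7 rose from 4, 0 and 1 counts to 44, 45 and 168 counts (log2 fold change 5.11, edgeR adjusted p = 0.00026). C1qtnf12 (adipolin, listed as Fam132a), which aids insulin action, fell from 106 ± 16.2 to 27.4 ± 7.30 CPM (SD, n = 3 each), a 3.91-fold fall like that of adiponectin in direction. Named after their values were seen, C1qtnf1, C1qtnf2, C1qtnf5 and C1qtnf6 were higher too. C1qtnf9 had a log2 fold change of -0.26 (interval -0.70 to 0.18, edgeR adjusted p = 0.313). C1qtnf5 was at 1.01 (edgeR adjusted p = 0.0251). It did not pass without wild-type replicate 3 (0.83, edgeR adjusted p = 0.0635) or without Letmd1 KO replicate 2 (0.80, edgeR adjusted p = 0.0831). The last 500 bases of C1qtnf5 overlap Mfrp on the same strand.

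Further relatives are named here after their values were seen. Retnla, a resistin relative and marker of alternatively activated macrophages, rose from 51.6, 25.7 and 20.5 CPM to 143, 179 and 224 CPM (edgeR adjusted p = 0.000257). Metrn, the closest relative of Metrnl, rose from 1.08, 1.17 and 3.26 CPM to 8.24, 7.54 and 7.06 CPM (log2 fold change 2.08). Of the Il6 family, Lif, Osm and Il11 did not pass the filter, while Ctf1, Cntf and Clcf1 were tested. Ctf1 was lower (log2 fold change -1.15, edgeR adjusted p = 0.0247). Its call was lost with any single mouse but wild-type replicate 3 or Letmd1 KO replicate 2 left out (edgeR adjusted p from 0.0571 to 0.0864). The last 500 bases of Ctf1 overlap Ctf2, read from the other strand. Cntf (0.91) and Clcf1 (0.57) did not pass (edgeR adjusted p = 0.0776 and 0.351).

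**Figure D4:**
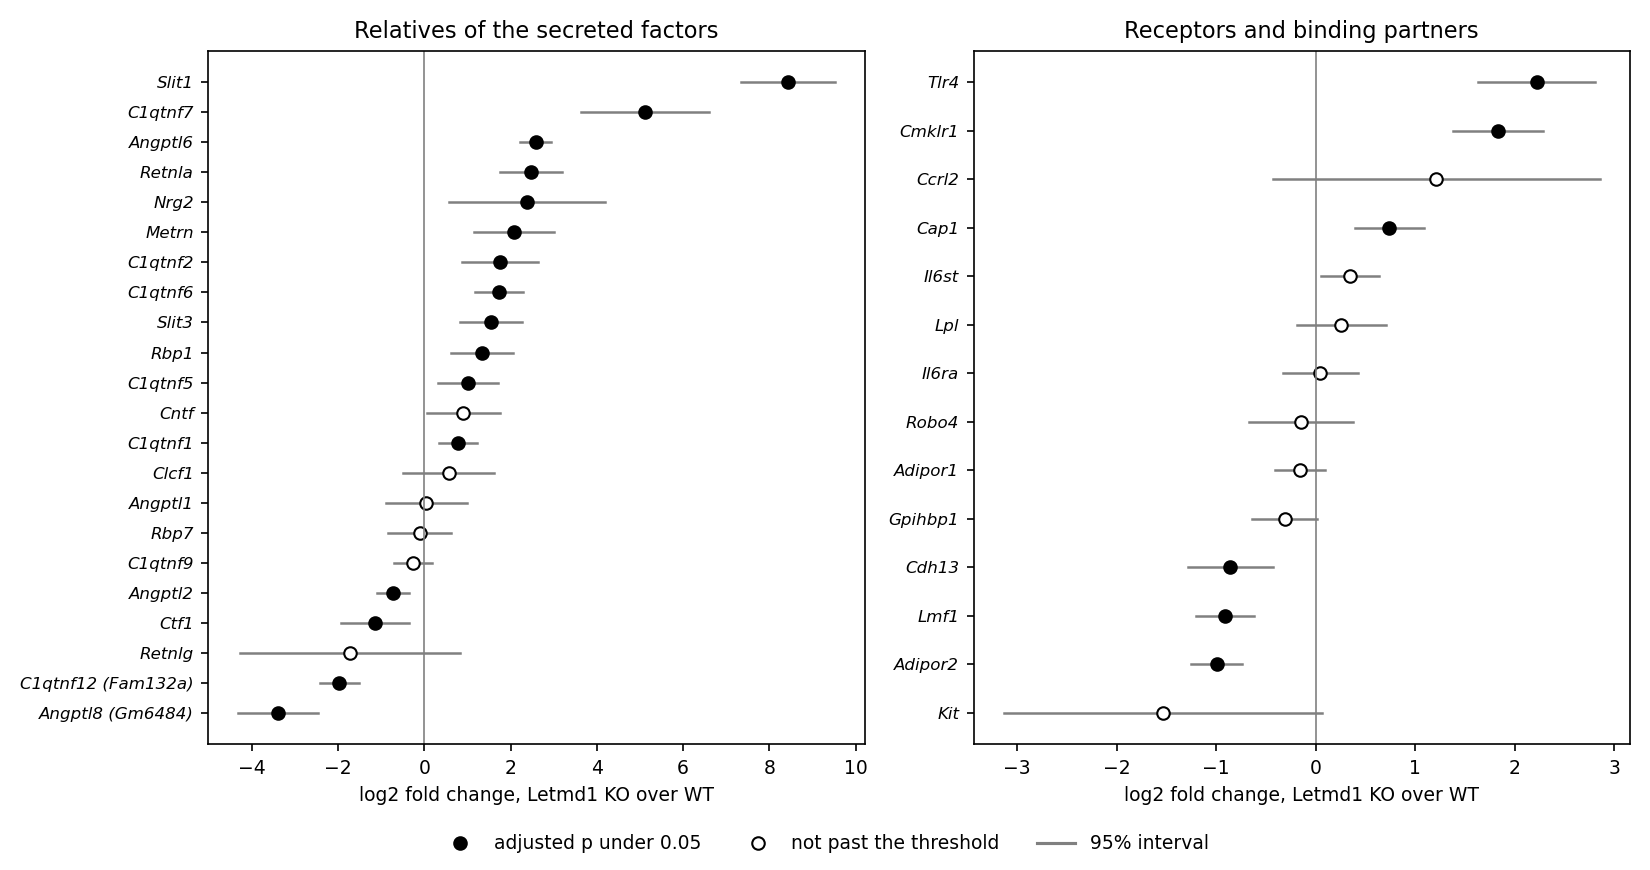
Log2 fold change, Letmd1 KO over WT (x axis), of 22 of the 23 tested relatives (left) and the 14 tested receptors and binding partners (right), with 95% intervals and filled points for genes past the threshold. Slit1 stands at the top with 8.43 and Angptl8 at the bottom with -3.39, while the receptors lie on both sides of 0.

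**Figure D5:**
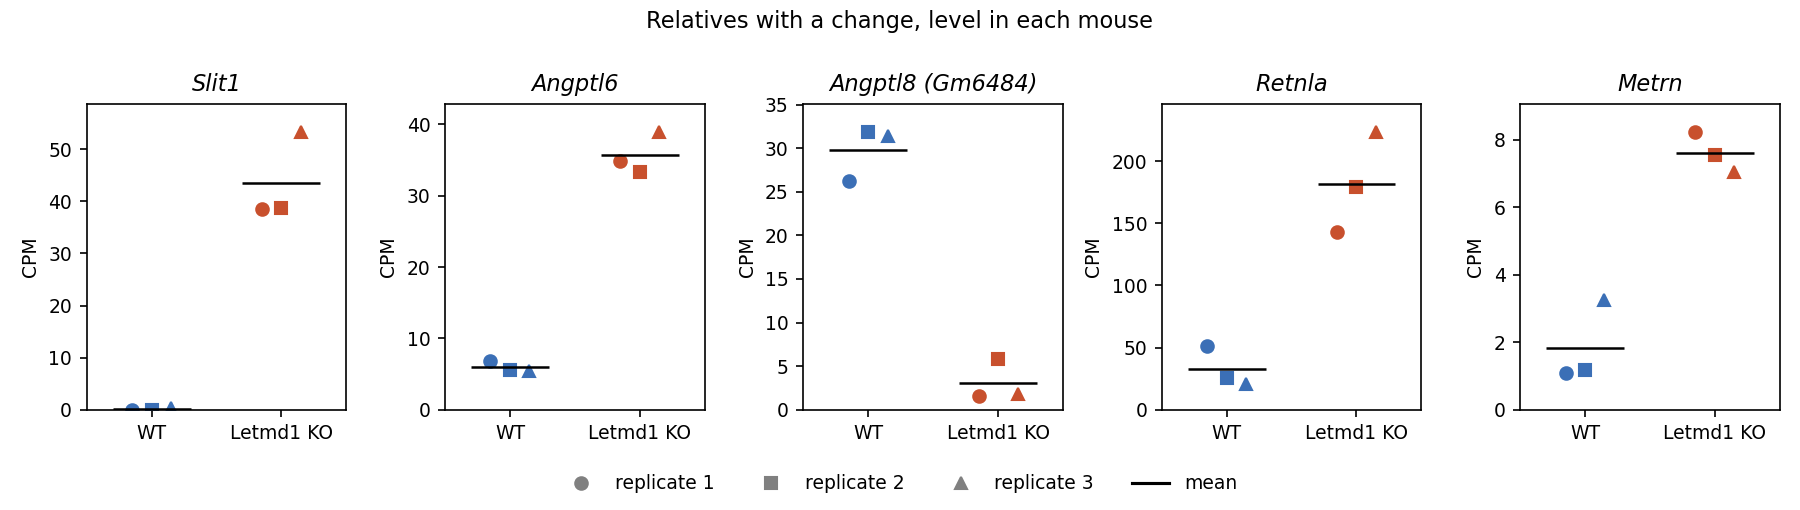
Level in CPM (y axis, linear, from 0) of 5 relatives of the secreted factors in each mouse, WT in blue and Letmd1 KO in orange, with black lines for group means. Slit1, Angptl6, Retnla and Metrn lie higher and Angptl8 (Gm6484) lower in all 3 Letmd1 KO mice.

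Adiponectin leaves the cell as disulfide-bonded multimers. Of 12 genes of that assembly, all tested, 6 were higher and 1 lower, with a median log2 fold change of 0.44. The values over all genes were 23.7% higher, 22.3% lower and a median of 0.033. Ero1l, the oxidase that promotes release of adiponectin, rose from 19.1, 24.4 and 11.9 CPM to 421, 344 and 532 CPM (log2 fold change 4.54, edgeR adjusted p = 5.67e-06). P4hb and Hspa5, a disulfide isomerase and the main chaperone of the endoplasmic reticulum, rose by 1.28 and 1.12 on the log2 scale. Gstk1 (DsbA-L), an adiponectin assembly factor, fell from 48.9 ± 5.85 to 37.5 ± 2.05 CPM (SD, n = 3 each), a change of -0.38 on the log2 scale that is smaller than the shift of all genes with library size alone. With any single mouse but wild-type replicate 2 left out, Gstk1 did not pass (edgeR adjusted p from 0.0624 to 0.112). Erp44, which holds adiponectin back and is named here after its values were seen, had 44.4 ± 6.05 and 44.9 ± 2.46 CPM (SD, n = 3 each). Its log2 fold change was 0.015 with all mice, -0.058 without wild-type replicate 3 and -0.0035 without Letmd1 KO replicate 2. Ero1l, P4hb and Hspa5 serve secreted proteins in general.

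Transcription factors that act on adipokine genes moved in both directions, about as often as all genes did. Of 20 factors and PPAR targets, 5 were higher, 4 lower and 11 did not pass, with a median log2 fold change of -0.075. Among all genes tested, 23.7% were higher and 22.3% lower, with a median of 0.033. Cebpa, which activates Adipoq and Lep in fat cells, fell from 427, 371 and 519 CPM to 133, 215 and 142 CPM (log2 fold change -1.43, edgeR adjusted p = 0.000423), and Cebpb fell by 1.13 on the log2 scale. Cebpd of the same family, named here after its values were seen, rose from 30.0, 26.4 and 26.7 CPM to 62.0, 74.2 and 58.4 CPM (log2 fold change 1.22, edgeR adjusted p = 0.000108). Pparg, the master factor of fat cells, named here after its value was seen, was at -0.18 (edgeR adjusted p = 0.47). Among PPAR targets, Cpt1a rose 4.89-fold and Fabp3 2.76-fold while Ucp3 fell 3.87-fold, so Angptl4 rose with some of these targets and not with others. The last 500 bases of Fabp3 overlap Zcchc17, read from the other strand. Atf4, the factor of the integrated stress response, rose by 1.45 on the log2 scale.

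Of 33 further secreted factors known from adipose tissue, 24 were tested, with 12 higher, 4 lower and a median log2 fold change of 0.63. Beside these stand 23.7% higher, 22.3% lower and a median of 0.033 over all genes. Gdf15, a stress hormone that lowers food intake, had 4, 1 and 2 counts in wild-type BAT and 1895, 1970 and 3663 in Letmd1 KO BAT. Ccl2, which recruits monocytes, was at least 30.4-fold higher, from no more than 3 counts in a wild-type library to 120, 71 and 149 counts. Lcn2 (lipocalin 2) rose from 1.23 ± 0.308 to 37.3 ± 14.5 CPM (SD, n = 3 each). Among those that fell, Ptgds, a prostaglandin D synthase, went from 21.4 ± 8.44 to 3.67 ± 2.50 CPM, Pm20d1, which makes uncoupling N-acyl amino acids, from 21.0 ± 0.824 to 6.63 ± 2.88 CPM and Nampt (visfatin) from 454 ± 97.9 to 200 ± 22.9 CPM (SD, n = 3 each).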

How the data were processed

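Total RNA of BAT from 3 wild-type and 3 Letmd1 KO mice was sequenced with QuantSeq 3′ libraries. The authors used Bowtie2 to align single-end reads and Bedtools to count them by gene, keeping reads with several alignments. The deposited values are raw counts of each mouse, without normalization. The submitters' processing notes name mm10. Annotation, versions and use of strand are not given in the sources used here. Groups followed the sample labels. From the counts, TMM-scaled libraries were tested in R 4.3.3 with edgeR 4.0.16 (quasi-likelihood test, default filter, count 10 and total 15, Benjamini-Hochberg adjustment, threshold 0.05). The 6 libraries differed by more than sampling noise within each genotype (chi-square over its degrees of freedom 11.5 to 34.0). The steps were tested on simulated data. limma 3.58.1 and DESeq2 1.42.0 served as alternatives, with other scalings, filters, a replicate block and left-out mice. Exact tests were not used, as 3 mice against 3 allow no p under 0.1. The members and lists were chosen with earlier results of these data known. Named were all members, all receptors measured and, of other lists, up to 3 genes with the largest and up to 3 with the most negative change among called genes with 20 or more counts on average. Positions came from GENCODE vM21 (GRCm38), promoters from RefSeq (GRCm38.p6). The values of 1 relative are not reported here, and it stays in the counts and median of its list.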

Additional observations from a re-analysis of the deposited data

How the results depend on the processing

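Among the members, 2 lower and 4 higher calls were made, and 1 lower call was left under quantile normalization with limma, where Adipoq missed the threshold. Leaving out single mice gave 2 to 3 lower and 3 to 5 higher. Leaving out wild-type replicate 3 and Letmd1 KO replicate 2 together, chosen after seeing the data, gave 3 and 5, with log2 fold changes of 3.17 for Lep and -2.12 for Rbp4. Over all genes, 5978 passed (2896 lower, 3082 higher), 3048 (1149 lower, 1899 higher) of them with a change of at least 2-fold, and between 4842 and 5868 without single mice. Library size alone gave 1368 lower and 5899 higher, 81.2% of calls higher.

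The sign of Slit2, never past the threshold, turned to -0.40 under quantile normalization, -0.08 without wild-type replicate 3 and -0.37 without both mice, and leaving out single mice gave up to 0.66. The median of receptors turned to 0.37 with library size alone and to 0.0304 and 0.0338 without wild-type replicates 1 and 2 (-0.11 without both mice), that of transcription factors and PPAR targets to 0.34 with library size alone, 0.035 under quantile normalization and 0.0443 without wild-type replicate 3 (lowest value -0.20, without Letmd1 KO replicate 2), and that of all genes to -0.053 under quantile normalization. Kit, tried after seeing the data, turned to 0.024 without wild-type replicate 3 (lowest value -2.02, without wild-type replicate 1). The cause was not tested.

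Deviations of same-numbered mice from the mean of their genotype correlated at 0.0691, -0.111 and -0.0865, and those of differently numbered mice at between -0.0931 and 0.191. Deviations of 3 mice from their own mean depend on each other, so these values cannot decide whether replicate numbers pair the mice. With the replicate block, Lep (1.70) and Rbp4 (-1.17) passed the threshold and Retn (1.34) did not, and 3 members were lower and 4 higher. Depth limits Il6, Slit2 and the receptors and binding partners under the filter.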
